A study of Mus musculus with 2 samples.

Results

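The 96 genes described here encode the receptors for acetylcholine, GABA, glutamate, serotonin, adrenaline and noradrenaline, dopamine and extracellular purines, and were measured by total RNA-seq in the intestine of mouse embryos. They were chosen by symbol, as the protein-coding genes of the families Chrn (subunits a, b, g, d and e), Chrm, Htr, Adra, Adrb, Drd, Gabr, Gria, Grin, P2rx and P2ry. They are 96 of the 21474 protein-coding genes in the gene tables, and each was present in both tables. One of them, Grina, encodes a membrane protein that shares the start of its symbol with the NMDA receptor genes and is not a receptor subunit. It is kept in the counts and named where it matters. The 2 libraries came from B6NCrl embryos at 14.5 days, with no treatment given in the labels, and form the only group. The starting material was 10 ng of RNA above 200 nucleotides for each. The labels call each source the intestine of a single pup and give the sex as pooled male and female. They give both the same donor record and collection days that differ, so day and embryo cannot be told apart. With 1 group there was no contrast to test. Each mean is over both libraries and is followed by its SD (n = 2).

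Transmitters act through receptors of distinct build. Nicotinic acetylcholine receptors, GABA-A receptors, Htr3 serotonin receptors, AMPA and NMDA glutamate receptors and P2X receptors for ATP are ion channels put together from several subunits, so that a cell needs a suitable set of subunit genes. Muscarinic, adrenergic, dopamine, P2Y and most serotonin receptors are single proteins that signal through G proteins. In the mature gut, enteric neurons pass signals to each other mainly through nicotinic receptors and to smooth muscle through muscarinic receptors, and purines serve as inhibitory transmitters to the muscle.

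Levels are given as TPM, the share of a transcript in its library scaled to a fixed total, which corrects for transcript length and so allows genes to be compared. Detection required a TPM of 1 or more in each library. The deposited 95% intervals of TPM cover the uncertainty of assigning and counting reads in a library, not the spread between embryos. Replicates 1 and 2 held 32938592 and 32371363 estimated counts in genes, of which the receptor genes took 14771 and 14143. For these genes 3 counts, the limit that a count of 0 allows, came to a median of 0.0514 and 0.0535 TPM. Markers of the labelled tissue were present, with 7 of 7 epithelial, 8 of 8 smooth muscle, 12 of 12 enteric neuron and 5 of 5 interstitial cell of Cajal markers detected. Of 6 central nervous system markers 1 was detected and 4 had 0 counts in both libraries. The libraries differed by more than sampling noise, with a chi-square per degree of freedom of 14.5 over 15110 genes, so they were not the same library deposited again. Replicate 2 stood apart in pancreas markers, which summed to 2.82 TPM in replicate 1 and 632 TPM in replicate 2. In a whole tissue, fewer cells of a type and less RNA per cell cannot be told apart.

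Most of the receptor genes were at low levels. Of the 96 genes, 34 (35.4%) were detected, against 61.3% of all protein-coding genes, and 10 reached a mean TPM of 5, against 49.8%. The median of the mean TPM was 0.458, against 4.90 over all protein-coding genes. Only in replicate 1 did 2 further genes reach TPM 1, and only in replicate 2 did 3, while 57 stayed under it in both. Counts of 0 in both libraries were found for 7 genes (7.29%), against 19% of protein-coding genes. These were the nicotinic subunit genes Chrnd, Chrna9 and Chrnb3, the dopamine receptor genes Drd3 and Drd5, the GABA-A subunit gene Gabra6 and the serotonin receptor gene Htr7. A further 6 genes, which makes 13 in all, had under 3 counts in each library. The receptor genes together summed to 227 TPM in replicate 1 and 218 TPM in replicate 2, and Grina held 22% of this. Without Grina, the 5 highest genes held 47.7% of the sum and the 10 highest 64.6%.

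**Figure D1:**
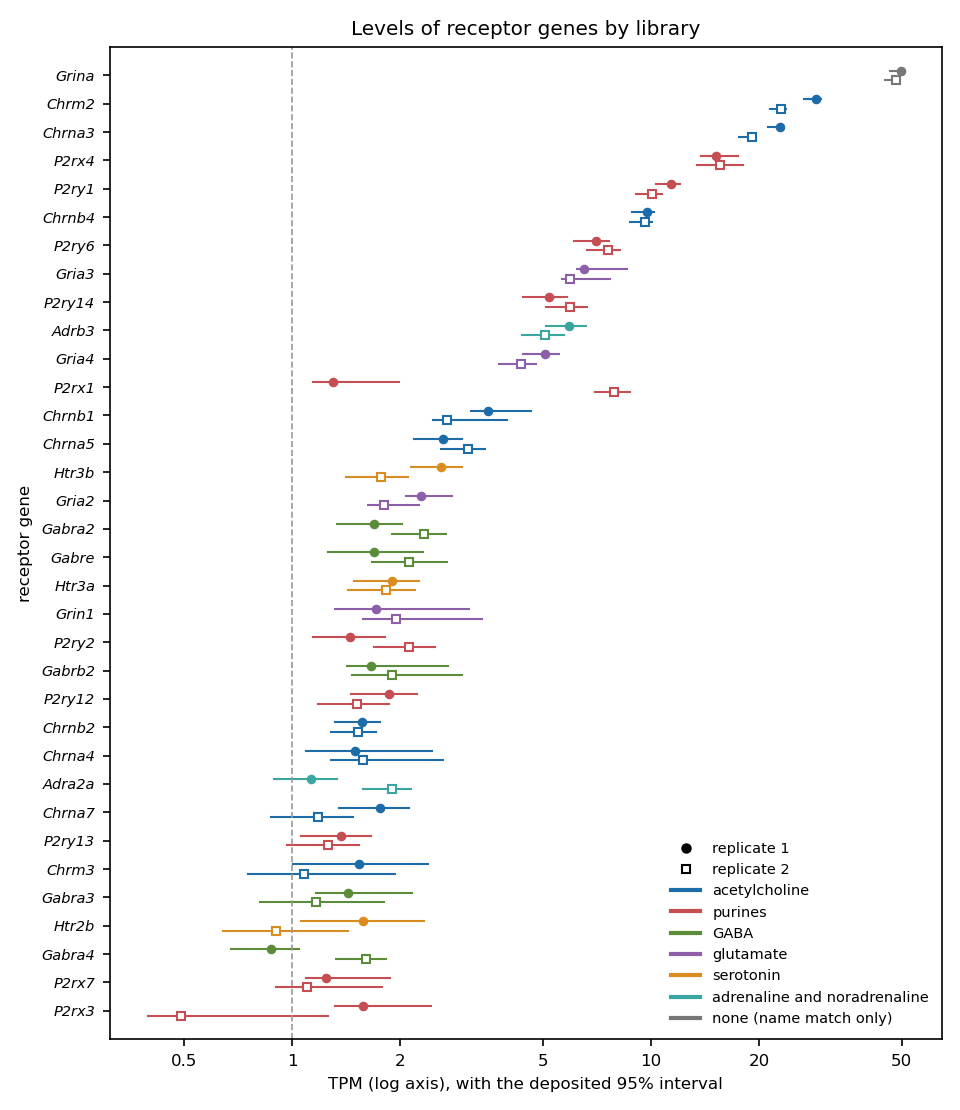
TPM of 34 of the 37 receptor genes with a mean TPM of 1 or more (log axis), with filled circles for replicate 1, open squares for replicate 2 and lines for the deposited 95% interval, coloured by transmitter. Chrm2 and Chrna3 lead the receptors proper, and P2rx1 is the gene whose libraries lie farthest apart, at 1.30 and 7.89 TPM.

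Counted by transmitter, the genes for acetylcholine receptors had the highest sum, 69.4 ± 8.08 TPM, with 9 of 21 detected. Purine receptor genes followed at 52.3 ± 4.38 TPM with 9 of 16 detected. This share, 56.2%, was the highest of any transmitter here but below the 61.3% of all protein-coding genes. The purine sums of 49.3 and 55.4 TPM in replicates 1 and 2 include 0 and 6.72 TPM of a noncoding P2rx1 transcript. Glutamate receptor genes without Grina summed to 17.1 ± 0.750 TPM (4 of 11 detected) and GABA-A genes to 16.3 ± 0.424 TPM (6 of 19). The glutamate sum was the higher in each library, at 17.6 against 16.6 TPM in replicate 1 and 16.5 against 15.95 TPM in replicate 2, although the spreads of the means overlap. Adrenergic receptor genes summed to 9.98 ± 0.0707 TPM (3 of 9), serotonin receptor genes to 7.37 ± 1.40 TPM (2 of 14) and dopamine receptor genes to 0.980 ± 0.495 TPM (0 of 5). By build, 22 of 55 ion channel subunit genes and 11 of 40 genes of G protein coupled receptors were detected.

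**Figure D2:**
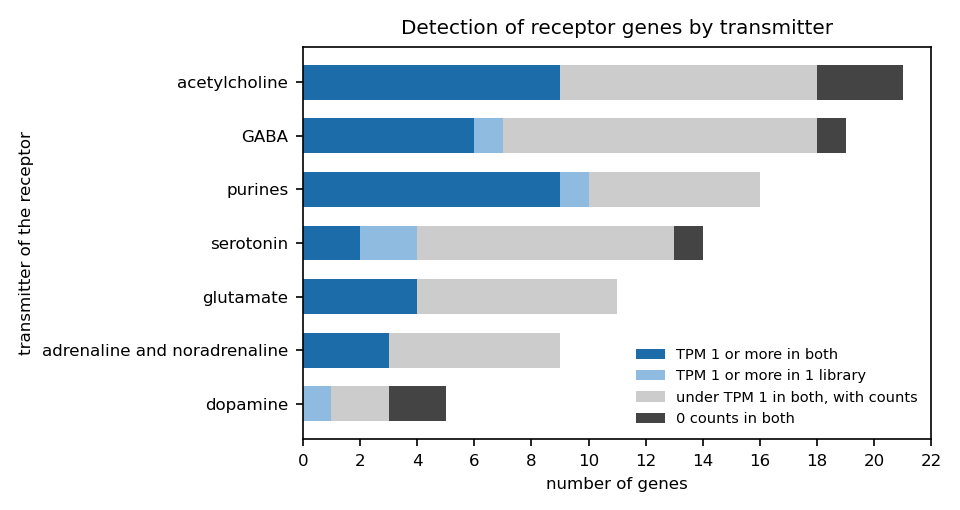
Number of receptor genes per transmitter, split into those at TPM 1 or more in both libraries, in 1 library, under TPM 1 in both with counts, and with 0 counts in both. Grina is left out, and the 95 genes shown run from 21 for acetylcholine to 5 for dopamine, of which 9 and 0 were detected in both libraries.

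Among the G protein coupled acetylcholine receptors 1 gene held almost all of the level. Chrm2 encodes the M2 muscarinic receptor, the inhibitory receptor that is abundant on visceral smooth muscle. It stood at 28.9 TPM in replicate 1 (3245 estimated counts) and 23.1 TPM in replicate 2 (2843 counts), a mean of 26.0 ± 4.10 TPM, and was the highest of the receptors proper in each library, although its spread overlaps that of Chrna3. Its deposited intervals, 26.8 to 29.8 and 21.5 to 23.8 TPM, did not overlap, and the ratio of replicate 2 to replicate 1 was 0.799. The gene lies at chr6:36388084-36528414 (mm10). Of its level, 14.8% and 6.72% was assigned to a short noncoding transcript of 697 bases, and the coding transcript was at 24.6 and 21.5 TPM. Chrm3, which encodes the M3 receptor through which acetylcholine contracts gut muscle, was at 1.53 and 1.08 TPM with intervals that overlap. Its coding transcripts were at 0.65 and 0.73 TPM, and the rest was assigned to a noncoding transcript from 9.84 and 3.93 counts. Chrm1 was at 0.35 and 0.19 TPM, and Chrm4 and Chrm5 had 4 counts or fewer in each library. Chrm2 thus stood far above the other 4 muscarinic genes in both libraries.

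The neuronal nicotinic subunits were led by Chrna3, Chrnb4 and Chrna5, which encode the alpha 3, beta 4 and alpha 5 subunits of the ganglionic nicotinic receptor. Chrna3 was at 22.8 and 19.1 TPM (1602 and 1354 counts), a mean of 20.9 ± 2.65 TPM. Its intervals, 21.2 to 23.4 and 17.6 to 19.6 TPM, lay apart as those of Chrm2 did, with replicate 2 again the lower. Chrnb4 was at 9.76 and 9.64 TPM (768 and 767 counts) and was nearly equal in the libraries. Chrna5 was at 2.63 and 3.08 TPM (161 and 191 counts), with intervals that overlap. These genes are neighbours, at chr9:54980880-55048779, with Chrna5 on the plus strand and the others on the minus strand, and together they summed to 33.5 TPM. The remaining detected neuronal subunits were below Chrna5 in each library. Chrnb2, the main beta subunit of brain receptors, was at 1.56 and 1.52 TPM, but 16.3% of its exonic bases are shared with Adar, and the use of strand in counting is not given in the sources used here. Chrna4, its usual partner in the brain, was at 1.49 and 1.57 TPM. Of this, 32.2% and 27.4% was assigned to a noncoding transcript from 6.84 and 6.2 counts. Its coding transcripts were at 1.02 and 1.14 TPM, close to the threshold. Chrna7, which forms receptors of a single kind of subunit, was at 1.75 and 1.18 TPM. Chrna2, Chrna6 and Chrna10 had 5 counts or fewer in each library, and Chrna9 and Chrnb3 had none. For Chrna9 the deposited interval was 0.200 to 1.28 TPM in replicate 1 in spite of its 0 counts, so its level is poorly set.

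The muscle-type nicotinic subunits, which form the receptor of the neuromuscular junction of skeletal muscle, were at or near 0 with 1 exception. Chrna1, the alpha 1 subunit that every muscle-type receptor needs, was at 0.06 and 0.16 TPM from 6 and 16 counts. Chrnd, the delta subunit, had 0 counts in both libraries. Chrng, the fetal gamma subunit, had 1 and 0 counts, and Chrne, the adult epsilon subunit, had 5 and 3. Chrnb1, the beta 1 subunit, stood apart from these at 3.50 and 2.70 TPM (163 and 126 counts), nearly all of it from its coding transcript. Of 9 skeletal muscle markers 3 were detected, led by the myosin light chain gene Mylpf at 7.28 and 8.64 TPM, while Myod1 and Myog had 2 and 4 counts in replicate 1 and 0 in replicate 2. Of the genes that cluster the muscle receptor, Lrp4, which encodes the agrin receptor and is also used outside muscle, was at 6.17 and 6.64 TPM. Rapsn, the rapsyn gene, was at 0.44 and 1.17 TPM, the adaptor gene Dok7 at 0.69 and 1.01 TPM and the kinase gene Musk at 0.08 and 0.15 TPM.

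Of the genes that supply acetylcholine, 5 of 6 were detected. The choline transporter-like gene Slc44a1 was at 50.6 and 58.4 TPM, the gene of the degrading enzyme Ache at 9.26 and 10.6 TPM, and the vesicular transporter gene Slc18a3 at 8.93 and 8.81 TPM. Chat, the synthetic enzyme gene, was the one below the threshold at 0.87 and 0.60 TPM from 55 and 38 counts. Slc18a3 was thus well above Chat in both libraries.

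Purine receptors are the P2X channels, which ATP opens, and the G protein coupled P2Y receptors, which respond to ATP, ADP, UTP, UDP or UDP-sugars. P2rx4 led the 7 P2X genes at 15.2 and 15.6 TPM (540 and 538 counts), with a mean of 15.4 ± 0.297 TPM. Its intervals, 13.8 to 17.5 and 13.5 to 18.0 TPM, overlapped almost in full. Its main coding transcript held 63.7% of its TPM in replicate 1 and 55.2% in replicate 2. P2rx7, the ATP receptor of macrophages and other immune cells, lies beside it and was at 1.24 and 1.10 TPM. P2rx2 was at 0.55 and 0.80 TPM, P2rx6 at 0.62 and 0.47 TPM, and P2rx5 had 3 and 2 counts.

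P2rx1, the P2X subunit of smooth muscle and platelets, was at 1.30 TPM (72 counts) in replicate 1 and 7.89 TPM (335 counts) in replicate 2. Its intervals, 1.14 to 1.98 and 7.00 to 8.75 TPM, lay far apart. A gene was said to differ between the libraries when its mean TPM was at least 1, TPM + 1 differed by at least 1.5-fold and the intervals did not overlap. By this rule P2rx1 was the 1 receptor gene of 37 that was higher in replicate 2 (2.70%), against 1.28% of 13446 protein-coding genes. The transcript table placed the whole of the difference in 1 transcript. The full-length coding transcript (ENSMUST00000021141, 12 exons) was alike in the libraries, at 1.30 and 1.17 TPM from 72 and 65.8 counts, with intervals of 0.685 to 1.43 and 0.633 to 1.57 TPM. An internal transcript annotated as a retained intron (ENSMUST00000148964) had 0 counts in replicate 1 and 269 in replicate 2, which is 0 and 6.72 TPM, with an upper bound of 0.516 TPM in replicate 1 and an interval of 5.68 to 7.53 TPM in replicate 2. It made up 85.1% of the gene's TPM in replicate 2.

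The internal transcript has 6 exons and 1805 bases, and 139 of these (7.70%) lie outside the exons of the coding transcripts. It begins 10688 bases downstream of the start of the full-length transcript, inside the intron before exon 7. Its first 240 bases (chr11:73009791-73010030, plus strand, mm10 as in GENCODE M21 on GRCm38) are shown because they hold all of the sequence that sets it apart. Capitals mark the 139 intronic bases, and lower case the start of exon 7, which the coding transcript shares.
P2rx1 internal transcript: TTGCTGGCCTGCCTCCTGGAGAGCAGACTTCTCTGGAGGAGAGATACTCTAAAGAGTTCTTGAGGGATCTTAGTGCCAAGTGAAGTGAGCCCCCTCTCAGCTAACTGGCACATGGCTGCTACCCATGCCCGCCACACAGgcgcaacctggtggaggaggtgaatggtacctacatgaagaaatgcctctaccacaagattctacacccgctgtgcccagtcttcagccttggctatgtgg
All other bases of this transcript are shared with the coding transcripts, so its level rests on how the authors' quantification assigned shared reads. Of 172 protein-coding genes that were higher in replicate 2, 4 (2.33%) had 80% or more of the difference in noncoding transcripts, and P2rx1 was among them. Several marker lists were also higher in replicate 2. Of 8 pancreas markers 1 was detected in both libraries and 4 (Ptf1a, Ctrb1, Ins1 and Ins2) had 0 counts in replicate 1. Platelet and mast cell markers, of which 5 of 8 were detected, summed to 45.4 and 57.6 TPM, and erythroid markers, 5 of 7 detected, to 7508 and 10920 TPM. Endocrine cell markers, 3 of 7 detected, summed to 16.3 and 44.3 TPM. Smooth muscle markers summed to 3454 and 3227 TPM and macrophage markers to 168 and 166 TPM, with replicate 2 the lower. The part of these lists in the P2rx1 result was not tested.

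**Figure D3:**
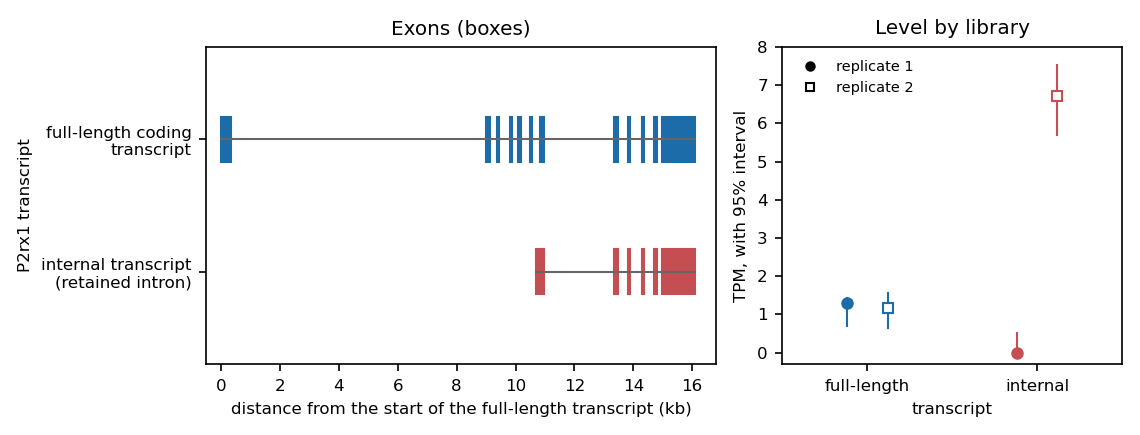
Left, exons of the full-length coding and the internal P2rx1 transcript by distance from the start of the full-length one (kb). Right, TPM of each transcript with its deposited 95% interval, circles for replicate 1 and squares for replicate 2; the full-length transcript is at 1.30 and 1.17 TPM and the internal one at 0 and 6.72 TPM.

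P2rx3, the P2X subunit of sensory neurons, was at 1.57 TPM (53 counts) in replicate 1 and 0.49 TPM (14 counts) in replicate 2. Its intervals, 1.31 to 2.44 and 0.395 to 1.25 TPM, did not overlap, and it was the 1 receptor gene of 37 that was lower in replicate 2, against 0.268% of protein-coding genes. Unlike P2rx1, its coding transcripts carried the difference, at 1.21 and 0.27 TPM from 48 and 11 counts. The mean of 1.03 TPM lies just above the level at which the rule applies.

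The P2Y receptors were led by P2ry1, the ADP receptor through which purines relax gut muscle. It was at 11.4 and 10.1 TPM (787 and 734 counts), a mean of 10.7 ± 0.919 TPM, with overlapping intervals of 10.3 to 12.0 and 9.10 to 10.7 TPM. Of its exonic bases 23.1% are shared with Gm37035, and its leading transcript was not the same in the libraries. P2ry6, a UDP receptor, followed at 7.00 and 7.57 TPM (299 and 327 counts). P2ry14, the receptor for UDP-glucose, was at 5.18 and 5.96 TPM (200 and 226 counts), and its 2 coding transcripts traded places, with the longer one at 72.0% of its TPM in replicate 1 and 33.8% in replicate 2. P2ry2, which responds to ATP and UTP, was at 1.45 and 2.11 TPM. The ADP receptors P2ry12 and P2ry13, which microglia and other macrophages express, were at 1.86 and 1.51 TPM and at 1.37 and 1.26 TPM. They lie with P2ry14 in 1 cluster, chr3:59113855-59262871, in which all 3 genes were detected. P2ry10b was at 0.38 and 0.47 TPM, and P2ry10 and P2ry4 had 7 counts or fewer. In all, 6 of 9 P2Y and 3 of 7 P2X genes were detected. Of 10 genes that release, break down or recycle purines 9 were detected, led by the adenosine kinase gene Adk at 124 and 116 TPM. The pannexin channel gene Panx1 followed at 33.7 and 33.4 TPM and the ectonucleotidase gene Entpd1 at 7.89 and 8.94 TPM.

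Ionotropic glutamate receptors of the AMPA class were detected in 3 of 4 cases. Gria3 was at 6.48 and 5.93 TPM (732 and 695 counts), Gria4 at 5.05 and 4.33 TPM (476 and 428 counts) and Gria2 at 2.29 and 1.80 TPM (220 and 195 counts). Gria1, a main subunit of the adult forebrain, was just below the threshold at 0.82 and 0.78 TPM. Its intervals of 0.793 to 2.07 and 0.776 to 2.20 TPM lie on both sides of the threshold. For each of the 4 genes the intervals overlapped between the libraries, and the order Gria3, Gria4, Gria2, Gria1 was the same in both. Noncoding transcripts took 44.1% and 43.8% of the Gria3 level, so that its coding transcripts came to 3.62 and 3.33 TPM, below those of Gria4. Gria2, the subunit that makes AMPA receptors impermeable to calcium, had 39.7% and 47.2% in noncoding transcripts.

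Of the 7 NMDA receptor genes only Grin1, the subunit that all NMDA receptors contain, was detected, at 1.71 and 1.95 TPM from 83.0 and 93.6 counts. More than 50% of this was assigned to noncoding transcripts (53.8% and 55.4%), and the gene shares 13.5% of its exonic bases with the antisense gene Grin1os. Grin3a was at 0.58 and 0.78 TPM, and the Grin2 subunits, which bind glutamate, were lower still. Grin2d was at 0.21 and 0.31 TPM, Grin2b at 0.22 TPM in both, Grin2a at 0.04 and 0.21 TPM and Grin2c at 0.02 and 0 TPM. Grina, the name match, was at 49.8 and 48.3 TPM (1842 and 1807 counts), above every receptor gene, and without it the glutamate group has no member above Gria3. Of the other receptors of these transmitters that the symbol rule leaves out, 8 of 22 were detected, led by the GABA-B subunit gene Gabbr1 at 10.8 and 9.83 TPM and the kainate subunit genes Grik2 at 3.95 and 4.10 TPM and Grik5 at 4.36 and 3.69 TPM. Genes that supply or clear glutamate were detected in 3 of 8 cases, among them the enzyme gene Glul at 79.9 and 69.95 TPM and the transporter gene Slc1a3 at 9.06 and 7.43 TPM, whereas the vesicular transporter genes Slc17a6, with 0 and 13 counts, and Slc17a7, with 0 and 3, were not.

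GABA-A receptors are chloride channels that usually join alpha and beta subunits with a gamma subunit. Among the alpha subunits Gabra2 was at 1.69 and 2.32 TPM (90 and 125 counts). The only transcript of Gabra2 in the tables is annotated as a target of nonsense-mediated decay. Gabra3 was at 1.43 and 1.16 TPM, of which 0% and 25% was assigned to a noncoding transcript. This left its coding transcripts at 1.43 and 0.87 TPM. Gabra4 reached TPM 1 only in replicate 2, at 0.87 and 1.60 TPM with intervals that do not overlap. Among the beta subunits Gabrb2 was at 1.66 and 1.89 TPM, of which 18.1% and 50.3% was assigned to noncoding transcripts. Its coding transcripts were at 1.35 and 0.95 TPM, so they were lower in replicate 2. Among the gamma subunits Gabrg3 was at 0.66 and 0.46 TPM. The epsilon subunit gene Gabre was at 1.69 and 2.11 TPM, of which 68.6% and 82.9% was assigned to noncoding transcripts. Gabrp, the pi subunit, had 36 counts in replicate 1 and 0 in replicate 2. The rho subunits Gabrr1, Gabrr2 and Gabrr3 had 5 counts or fewer in each library. With all transcripts counted, members were thus present from the alpha and beta classes while no single GABA-A gene reached a mean of 3 TPM. Of 7 genes that make, package or clear GABA only Abat, the degrading enzyme gene, was detected, at 30.2 and 32.3 TPM. The synthetic enzyme genes Gad1 and Gad2 had 9 counts or fewer, and the vesicular transporter gene Slc32a1 had 0 in both libraries.

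Among the 14 serotonin receptor genes the channel subunits alone were detected. Htr3a, which can form a channel by itself, was at 1.89 and 1.82 TPM (87 and 85 counts). Htr3b, which needs Htr3a as a partner, was at 2.59 and 1.77 TPM (139 and 96 counts), and its intervals, 2.13 to 2.97 and 1.41 to 2.10 TPM, just failed to overlap. The genes lie side by side on chromosome 9. None of the 12 G protein coupled receptors reached TPM 1 in both libraries. Htr2b, a receptor known from smooth muscle and interstitial cells, was at 1.57 and 0.90 TPM (50.5 and 37.4 counts). It shares 11.8% of its exonic bases with Psmd1. Htr4, the receptor that prokinetic drugs act on, was at 0.93 and 1.02 TPM (98 and 109 counts), with overlapping intervals on both sides of the threshold. The others ranged down from Htr1b at 0.61 and 0.37 TPM, and Htr7 had 0 counts. Serotonin supply genes were detected in 6 of 8 cases, led by the decarboxylase gene Ddc at 27.6 and 29.7 TPM, the monoamine oxidase genes Maob at 10.8 and 13.9 TPM and Maoa at 12.4 and 11.4 TPM, while the neuronal synthetic enzyme gene Tph2 had 0 counts and the non-neuronal Tph1 4 and 14 counts.

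Adrenergic receptors were led by Adrb3, the beta 3 receptor that relaxes visceral muscle and is best known from fat. It was at 5.91 and 5.07 TPM (269 and 257 counts), a mean of 5.49 ± 0.594 TPM with overlapping intervals, and shares 24.9% of its exonic bases with Gm45470. Adrb1, the beta 1 receptor of the heart, was at 0.50 and 0.64 TPM. Adra2a, the alpha 2 receptor that damps transmitter release, was at 1.13 and 1.90 TPM (97 and 165 counts), with intervals of 0.890 to 1.33 and 1.57 to 2.14 TPM that lie apart. Adra2b followed at 0.52 and 0.66 TPM. No alpha 1 receptor was detected, and the highest of them, Adra1a, was at 0.37 and 0.35 TPM, above Adra1d at 0.07 and 0.21 TPM. Of the 5 dopamine receptor genes Drd4 came closest at 0.56 and 1.00 TPM (16 and 29 counts), with Drd2 at 0.03 and 0.18 TPM, Drd1 at 3 and 12 counts, and Drd3 and Drd5 at 0. Catecholamine supply genes were detected in 2 of 7 cases, among them the cofactor enzyme gene Gch1 at 2.38 and 3.47 TPM. Dbh, which makes noradrenaline, was at 1.65 and 0.83 TPM, and Pnmt, which makes adrenaline, had 0 counts.

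The libraries were compared over the 37 receptor genes with a mean TPM of 1 or more. Across these genes the correlation of log2(TPM + 1) was 0.935 (Pearson) and 0.752 (Spearman), against 0.985 and 0.987 over 13446 protein-coding genes, which span a wider range of levels. Genes are not independent replicates, and each point shares its library's depth. The intervals overlapped for 30 of the 37 (81.1%, against 76.9%), and 35 (94.6%, against 97.9%) were within 1.5-fold on TPM + 1. Intervals lay apart with replicate 2 lower for 4 genes (Chrm2, Chrna3, Htr3b and P2rx3), against 15.9% of protein-coding genes, and with replicate 2 higher for 3 (P2rx1, Adra2a and Gabra4), against 7.22%. Only P2rx1 and P2rx3 also passed 1.5-fold. The median log2 difference, replicate 2 minus replicate 1, was -0.09 for the 37 genes and -0.04 for all protein-coding genes. Scaling on the spike-ins moved the latter to -0.14, so small differences in level depend on the scaling.

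**Figure D4:**
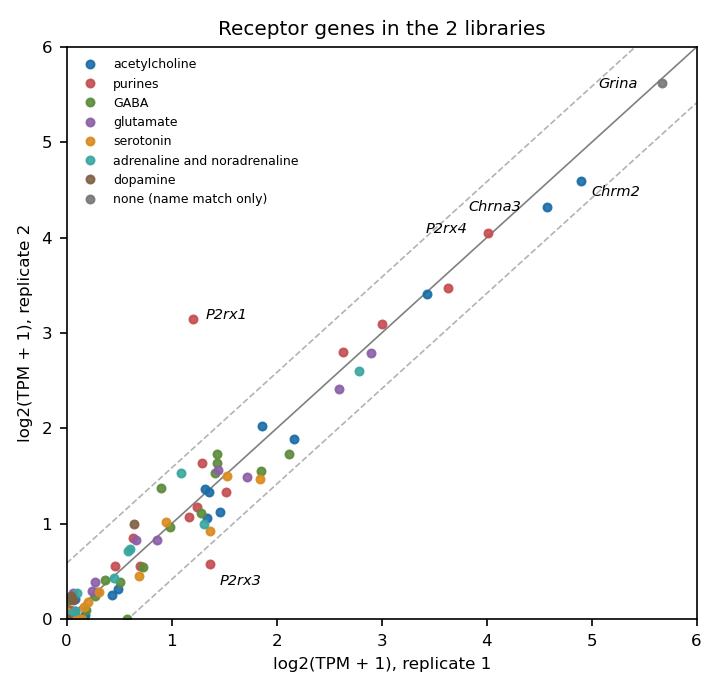
log2(TPM + 1) of the 96 receptor genes in replicate 1 (horizontal) and replicate 2 (vertical), coloured by transmitter, with the line of equality and dashed lines at a 1.5-fold difference. P2rx1 lies above the dashed band and P2rx3 below it, while Grina, Chrm2, Chrna3 and P2rx4 lie near the line.

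Many of the receptor genes have relatives close by in the genome. Placed within 1 Mb of each other, 44 of the 96 fell into 17 clusters. All genes were detected in 4 clusters, none in 4 and some in 9. The clusters detected in full were those of Chrna5, Chrna3 and Chrnb4, of P2ry14, P2ry13 and P2ry12, of P2rx7 and P2rx4, and of P2ry6 and P2ry2. In the mixed clusters neighbours could lie far apart in level. Adrb3, at 5.49 TPM, lies on chromosome 8 near Chrnb3 and Chrna6, which had at most 2 counts in a library.

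Annotated transcripts also differed between the genes. Of the 37 genes, 23 had more than 1 transcript in the tables. The leading transcript was the same in both libraries for 18 of these and another for 5 (P2ry1, P2ry14, P2rx1, Chrm3 and P2rx7). For 14 of the 37 genes at least 10% of TPM was assigned to noncoding transcripts in either library. These counts were not made over all protein-coding genes, so they do not show whether the receptor genes are unusual. Adrb3 kept 1 leading transcript, at 69.5% and 58.0% of its TPM, and Gria4 did as well, at 58.5% and 63.4%.

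Genes that assemble, anchor and read out the receptors were listed as well. Of 25 assembly and anchoring genes 16 were detected, led by the scaffold genes Dlg1 at 25.6 and 23.3 TPM and Pick1 at 23.6 and 22.5 TPM and the AMPA receptor chaperone gene Cnih2 at 17.7 and 18.6 TPM. Of 13 G protein alpha subunit genes 12 were detected, led by Gnas at 1302 and 1397 TPM, Gnai2 at 274 and 262 TPM and Gnai3 at 143 and 134 TPM. Enteric neuron markers, led by Gap43 at 87.1 and 81.3 TPM, Uchl1 at 84.1 and 77.9 TPM and Tubb3 at 80.8 and 77.1 TPM, stood above Chrna3. Of 7 enteric glia markers 5 were detected, and of 7 sympathetic and chromaffin markers 3. The receptor levels were not assigned to cell types, since these are whole-tissue libraries.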

How the data were processed

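Total RNA-seq of 2 libraries was used as deposited. Per the file headers and the deposited notes, the build is mm10 and the annotation GENCODE M4. No source used here gives the aligner, the quantification tool or the strand setting. The authors deposited expected counts and TPM for genes and transcripts, TPM being a share of all features including spike-ins (9.77% and 10.4% of TPM). FPKM was deposited beside them and used as an alternative. The percent share of each isoform was deposited in the transcript tables. Interval bounds of TPM, taken as scores, were deposited by the authors and are centred on a posterior mean.

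GENCODE M21 supplied names, biotypes and positions, and in it 42462 of 43346 gene identifiers matched. Replicates 1 and 2 held 34504419 and 34042802 counts in all features. Floors of 3 counts and the intervals cover counting error only. Whether the embryos were separate litters is not settled by the labels, so SDs may be partly technical. No test was run, since there is 1 group. Scaling factors came from edgeR 4.0.16 (TMM) and DESeq2 1.42.0 on expected counts rounded to whole numbers, or from spike-ins with a mean TPM of at least 5. Tables were handled in Python 3.11.15 with pandas 2.3.3, and the rules were tested on simulated data with counting noise only. The real libraries differed by more than such noise, so the rate of false calls between them was not tested.

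The members and lists were chosen with earlier results of these data known. The genes named were members with a mean TPM of at least 5, the 2 highest of each receptor class, all muscle-type nicotinic subunits, members that differ between the libraries, those near TPM 1, those with 0 counts in both, and at most the 3 highest genes of each other list. Genes outside this rule (other members, Chat, Tph1, Tph2, Gad1, Gad2, Slc32a1, Slc17a6, Slc17a7, Pnmt, Rapsn, Dok7, Lrp4, Musk, Myod1, Myog and the pancreas genes at 0) were picked with their values in view. Alternatives were other thresholds, a pseudocount of 0.1, posterior mean TPM, FPKM, rescaling over nuclear protein-coding genes, other scalings, and leaving out each library. Some genes that the rule selects are left out of the text and of the plot of levels.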

Additional observations from a re-analysis of the deposited data

How the results depend on the processing

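Detection depended on the threshold. The 34 detected genes became 10 at TPM 5 and 58 at an estimated count of 10, while TPM 0.5, FPKM, the posterior mean and the lower interval bound gave 25 to 44, and leaving out a library gave 36 to 37. Requiring fewer than 3 counts in place of 0 turned 7 genes into 13. The median of 0.458 TPM was 0.59 on the posterior mean, 0.599 after rescaling over nuclear protein-coding genes and 0.310 in FPKM, and 0.415 to 0.495 without a library. The 2 genes that differed became 0 at a mean TPM of 5 with a 2-fold difference, 4 with a pseudocount of 0.1 (with Adra2a and Gabra4), and 1, P2rx3, when coding transcripts alone were used, an alternative added after seeing the data. P2rx1 and P2rx3 kept their calls without the filter, under TMM, DESeq2 and spike-in scaling, and without the demand on intervals. The posterior mean was more than 1.2-fold from TPM for 3 genes, among them Grin1 and P2rx3. No paired analysis was possible because there is 1 group. Depth limits all genes with few counts, where 1 count more or less moves the order.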

Other observations

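The symbol rule also matches 2 noncoding genes, which are not among the protein-coding members. Chrna1os, an antisense gene next to the muscle nicotinic subunit gene Chrna1, was at 3.39 and 2.16 TPM from 33 and 22 counts, above Chrna1 itself at 0.06 and 0.16 TPM. Grin1os, which overlaps Grin1, was at 0.09 and 0.02 TPM. The use of strand in counting is not given in the sources used here, so reads of Grin1 and Grin1os may not be told apart.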
